A study of Mus musculus with 6 samples.

Results

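The 10 genes described here mark the cells that wrap blood vessels. Of them, 5 encode contractile or actin-binding proteins of vascular smooth muscle (Myh11, Tagln, Cnn1, Lmod1 and Smtn), and 5 are used as markers of pericytes (Rgs5, Pdgfrb, Cspg4, Kcnj8 and Abcc9). They were chosen by name, and all 10 were found by Ensembl identifier among the 52369 genes for which the authors deposited FPKM, that is fragments per kilobase of gene after correction for library depth. A mean FPKM of at least 1, the filter for testing, was met by 9 of the 10 and by 14788 of all genes. Tagln was the gene below it.

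RNA sequencing covered 6 libraries of tibialis anterior muscle from C57BL/6 mice labelled 6 weeks of age, 3 with Linc-smad7 overexpression (L7) and 3 controls (Control). In both groups the muscle had received 50 µl of 10 µM cardiotoxin, a venom toxin that destroys muscle fibres, at 5 weeks of age. Both groups then received injections of 6.25 µg of the plasmid pcDNA3.1 with a transfection reagent and glucose. Days 2 and 4 were among the injection days, and both groups were sampled on day 7. The labels give the same plasmid text for both groups, so what each plasmid carried is known only from the genotype label, and which cells of the muscle took it up is not stated. No uninjured muscle is among the samples. The comparison asks whether genes of vessel-wall cells differed in injured muscle that received Linc-smad7.

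Pericytes lie on capillaries and small venules, and smooth muscle cells form the wall of arterioles. Endothelial cells recruit both with the growth factor PDGF-B, which acts on the receptor Pdgfrb. Contractile genes of smooth muscle are switched on by serum response factor, which binds CArG boxes in DNA, together with its cofactor myocardin. After muscle injury the vessels regrow along with the fibres, and myofibroblasts and young muscle fibres also make some of the same contractile proteins. In bulk tissue, fewer cells of a type and less RNA per cell cannot be told apart.

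The reads in genes came to 20725423 to 22179456 per L7 library and 19420012 to 24663153 per Control library. L7 replicate 3 stood apart from the rest, with correlations over genes of 0.920 to 0.951 with the other 5. Its scaling factor by the median of ratios was 0.769, against 1.02 to 1.09 in the other 5. Over all 14788 genes the median log2 difference was -0.0015 after scaling by these factors and -0.15 on FPKM as deposited, so differences are given on both scales where it matters. The 10 mature fibre genes, such as the skeletal actin Acta1, together summed to 21145 to 69389 FPKM in L7 and 12903 to 19819 FPKM in Control libraries, with the highest value in L7 replicate 3. Reads of Y-linked genes were present in L7 replicate 1 and Control replicates 1 and 3 and nearly absent from the others, so sex was not balanced between the groups. Nothing in the labels says how animals were assigned, and the p-values measure the spread between these 6 samples.

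By mean FPKM over the 6 libraries the order was Rgs5 (81.5 FPKM), Smtn (78.9 FPKM), Pdgfrb (26.4 FPKM), Abcc9 (15.9 FPKM), Cspg4 (9.35 FPKM), Kcnj8 (7.17 FPKM), Myh11 (3.19 FPKM), Cnn1 (2.16 FPKM), Lmod1 (1.43 FPKM) and Tagln (0.485 FPKM). The ranges over the 6 libraries did not overlap between Smtn and Pdgfrb, between Abcc9 and Cspg4, or between Lmod1 and Tagln. All other neighbours in the order had overlapping ranges. Rgs5 was above Smtn in only 3 of 6 libraries, while Kcnj8 was above Myh11 in all 6. These levels depend on the gene length behind each FPKM, which was 1098 bp for Cnn1 where the annotated exons span 2736 bp, 2041 bp of 4380 bp for Smtn and all 3948 bp for Lmod1. With the exon length of the annotation in its place, Kcnj8 (6.78 FPKM) moved ahead of Cspg4 (4.22 FPKM) and Lmod1 (1.43 FPKM) ahead of Cnn1 (0.868 FPKM), and the other places were kept.

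**Figure D1:**
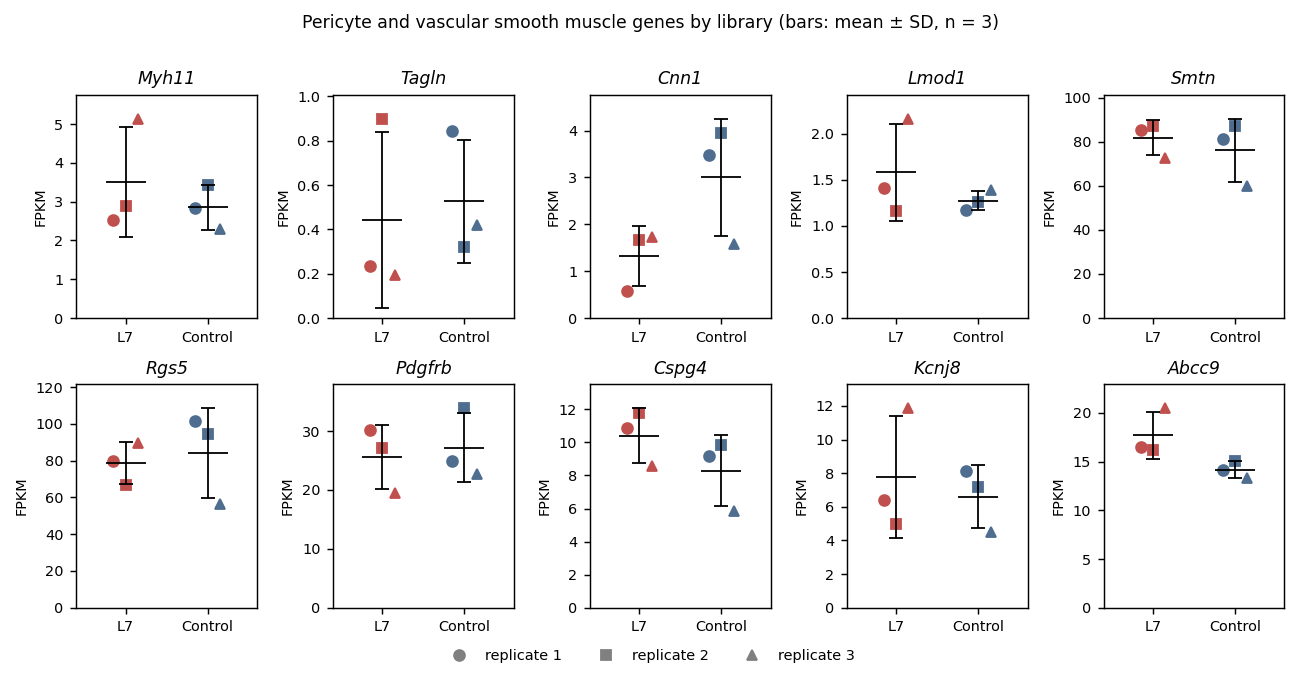
FPKM of each of the 10 genes (vertical axis, from 0) in the L7 libraries (red, left) and Control libraries (blue, right), with the replicate as the marker shape and the mean ± SD (n = 3) as bars. The groups overlap in every panel except that of Abcc9, where the L7 values lie between 16.2 and 20.5 FPKM and the Control values between 13.3 and 15.1 FPKM.

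Among the contractile genes, Cnn1 had the lowest level in L7 libraries relative to Control. Cnn1 (chr9:22099216-22109630, plus strand, GRCm38, the build of mm10) encodes calponin 1, an actin-binding protein that damps the myosin motor of smooth muscle. It was at 0.575, 1.67 and 1.72 FPKM in L7 replicates 1 to 3, against 3.49, 3.94 and 1.59 FPKM in Control replicates 1 to 3. Every L7 library lay below Control replicates 1 and 2, but Control replicate 3 lay below 2 of the 3 L7 libraries, so the groups overlapped. The values rest on few reads, 14, 38 and 40 in L7 and 80, 84 and 43 in Control libraries. The L7 mean was 1.32 ± 0.647 FPKM and the Control mean 3.00 ± 1.25 FPKM (SD, n = 3 each), a ratio of 0.440. In limma across all genes the log2 difference on log2(FPKM + 1) was -0.78 ± 0.32 (SE), with a 95% interval of -1.53 to -0.02, an unadjusted p of 0.0449 and an adjusted p of 0.580. Cnn1 therefore did not pass the adjusted threshold of 0.05, and its adjusted p ranged from 0.365 to 0.873 over its alternatives. With median of ratios scaling its log2 difference was -0.65, at an unadjusted limma p of 0.106. That p was 0.0903 with quantile normalization, 0.104 with voom, 0.00658 with array weights and 0.00761 with sex as a covariate. Whether the unadjusted p of Cnn1 fell under 0.05 thus depended on the setting. In the authors' deposited table its log2 fold change was -0.94 with a p of 0.0830.

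Myh11 (chr16:14194535-14291372, minus strand), the smooth muscle myosin heavy chain and the gene most restricted to mature smooth muscle, was at 2.52, 2.88 and 5.14 FPKM in L7 libraries, against 2.84, 3.44 and 2.29 FPKM in Control libraries. The high value belongs to L7 replicate 3, and the other L7 libraries lay within the Control range. Its log2 difference was 0.19 ± 0.25 (SE; 95% interval -0.39 to 0.78), with an adjusted p of 0.695 in limma, and it was -0.050 without L7 replicate 3. Lmod1 (chr1:135324807-135368065, plus strand) encodes leiomodin 1, which starts actin filaments in smooth muscle. It was at 1.42, 1.16 and 2.16 FPKM in L7 libraries, against 1.18, 1.27 and 1.39 FPKM in Control libraries. Here too L7 replicate 3 stood highest and the groups overlapped, with a log2 difference of 0.16 ± 0.19 (SE) and an adjusted p of 0.672 in limma. Without L7 replicate 3 that difference was 0.0069.

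Smtn (chr11:3517523-3540612, minus strand) encodes smoothelin, a cytoskeletal protein of contractile smooth muscle. It was at 85.2, 87.3 and 72.6 FPKM in L7 libraries, against 81.3, 87.1 and 60.0 FPKM in Control libraries. The third library of each group was its lowest, and the groups overlapped. The log2 difference was 0.11 ± 0.18 (SE; 95% interval -0.31 to 0.54), with an adjusted p of 0.746 in limma. Smtn had 60.0 FPKM or more in every library, while Myh11 stayed at or below 5.14 FPKM, so these smooth muscle genes differed widely in level. An antisense gene, Gm11946, covers part of the 16.3% of Smtn exon bases that lie within other annotated genes, and had 11 to 22 reads per library.

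Tagln encodes transgelin (SM22), an actin-bundling protein that is abundant in smooth muscle. It was at 0.233, 0.899 and 0.195 FPKM in L7 libraries, against 0.842, 0.320 and 0.420 FPKM in Control libraries. These are 5, 18 and 4 reads in L7 and 17, 6 and 10 reads in Control libraries, so it fell below the filter for testing and no difference was detectable at this depth. Tagln spans bases 45929619 to 45936058 of chromosome 9 on its minus strand (GRCm38), and 67.9% of its exon bases also belong to exons of genes on the plus strand. The gene with the longest shared stretch is the antisense gene Gm48529, which had 14, 19 and 13 reads in L7 and 25, 19 and 29 reads in Control libraries. A more active gene recorded among the overlapping ones is Pcsk7. It had 1217, 1086 and 673 reads in L7 and 1250, 1147 and 1391 reads in Control libraries. The share of Tagln exon bases that Pcsk7 covers was not worked out. Of the 3 annotated Tagln transcripts, Tagln-201 is covered over 61.8% of its length, Tagln-202 over 92.1% and Tagln-203 over 95.7%. The sources used here do not say how the counting treated reads that fall on 2 genes or whether it used strand, and its part in the low Tagln values was not tested. Acta2, the smooth muscle actin, had 4228 to 9809 reads in L7 and 8173 to 15366 reads in Control libraries.

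Serum response factor acts on many of these contractile genes through the CArG box, so the box was looked for in promoter windows of 300 bases (250 before to 50 after the gene start, RefSeq, GRCm38.p6), which were at hand for 7 of the 10 genes. The box has 10 letters and the same form on both strands. Myh11, Tagln and Pdgfrb had no window and were not searched. An exact box was in 0 of the 7 windows, against 1.63% of all 32851 windows. A box with at most 1 mismatch was in 3 of 7, against 21.1% of all windows. So few windows at so low a share cannot show whether these genes lack the exact box. Of smooth muscle genes searched for comparison, Myl9, the regulatory light chain of smooth muscle myosin, had an exact box and Acta2 near matches only. The lines below show the near matches of Lmod1, Kcnj8 and Cspg4 in capitals with 10 bases on each side. The last line shows the exact box of Myl9.
Lmod1, 189 bases before the start: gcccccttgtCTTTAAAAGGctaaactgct
Lmod1, 164 bases before the start: ctgctctgtaCTAAATTTGGtcacgcagcg
Kcnj8, 46 bases before the start: gagcagcgagCCTTTTAAAGatgtgtgtgc
Cspg4, 238 bases before the start: tgtcccaaacCCTTAAAATGgggcatgggt
Myl9, 161 bases before the start: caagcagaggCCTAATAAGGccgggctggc
The stretch of Cspg4 holds a further near match shifted by 1 base. These stretches are at chr1:135324614-135324643 (plus), chr1:135324639-135324668 (plus), chr6:142571641-142571670 (minus), chr9:56864856-56864885 (plus) and chr2:156775293-156775322 (plus) in the order shown (GRCm38). A match of letters is a description and not a site shown to be bound. The levels of the 3 genes with a near match differed between groups by log2 0.16 (Lmod1), 0.16 (Kcnj8) and 0.31 (Cspg4), none past the threshold.

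Among the pericyte genes, Pdgfrb is the receptor through which PDGF-B holds pericytes on the vessel. It was at 30.1, 27.1 and 19.5 FPKM in L7 libraries, against 25.0, 33.9 and 22.8 FPKM in Control libraries. The groups overlapped widely, and L7 replicate 3 was the lowest of all 6. Its log2 difference was -0.09 ± 0.22 (SE; 95% interval -0.60 to 0.42), with an adjusted p of 0.839 in limma, and after scaling by the median of ratios it was 0.082. The ligand gene Pdgfb was at 22.5, 27.7 and 29.0 FPKM in L7 libraries, against 24.6, 24.3 and 21.0 FPKM in Control libraries. The groups overlapped for the ligand as well, with a log2 difference of 0.17 ± 0.15 (SE) and an adjusted p of 0.610 in limma.

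Cspg4 (chr9:56865033-56899870, plus strand) encodes the NG2 proteoglycan, a surface protein of pericytes that glial precursors and some other stromal cells also carry. It was at 10.9, 11.8 and 8.55 FPKM in L7 libraries, against 9.20, 9.85 and 5.82 FPKM in Control libraries. The third library of each group was its lowest, and L7 replicate 3 fell below Control replicates 1 and 2, so the groups overlapped as deposited. With median of ratios scaling they did not, at 10.5, 11.5 and 11.1 in L7 and 8.45, 9.37 and 5.64 in Control libraries. The log2 difference was 0.31 ± 0.22 (SE; 95% interval -0.21 to 0.83) as deposited and 0.47 after that scaling, with limma adjusted p-values of 0.580 and 0.615, in a range of 0.481 to 0.873 over its alternatives. Relative to Pdgfrb in the same library, Cspg4 was at 0.361, 0.434 and 0.438 in L7 and 0.368, 0.291 and 0.256 in Control libraries. That ratio, of 2 genes used as pericyte markers, overlapped between the groups in the lowest L7 and the highest Control library. As other cells also carry Cspg4, the ratio does not hold the cell type constant. An exact two-sided permutation test over the libraries gave p = 0.2, and 0.650 after adjustment over the 13 ratios compared, where 3 libraries against 3 allow no p below 0.1.

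Rgs5 (chr1:169655501-169695813, plus strand) encodes a regulator of G protein signalling that is strongly made by pericytes. It was at 79.9, 66.7 and 89.8 FPKM in L7 libraries, against 102, 94.4 and 56.4 FPKM in Control libraries. Control replicate 3 was the lowest and Control replicate 1 the highest of all 6, so the Control spread contained the whole L7 range. The log2 difference was -0.06 ± 0.25 (SE; 95% interval -0.64 to 0.52), with an adjusted p of 0.904 in limma. Leaving out Control replicate 3 gave -0.32 and scaling by the median of ratios gave 0.12, so no direction held.

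Kcnj8 and Abcc9 encode the pore (Kir6.1) and the sulphonylurea receptor (SUR2) of the ATP-sensitive potassium channel that relaxes vessels. Skeletal muscle fibres build their own such channel from the pore Kcnj11 (Kir6.2) and a splice form of Abcc9, so Abcc9 is not restricted to vessel cells in this tissue. The genes are neighbours on the minus strand of chromosome 6, Kcnj8 at 142564837 to 142571614 and Abcc9 at 142587862 to 142702315 (GRCm38), with 16247 bases between them. Kcnj8 was at 6.40, 5.01 and 11.9 FPKM in L7 libraries, against 8.12, 7.16 and 4.49 FPKM in Control libraries. L7 replicate 3 was the highest of all 6, and without it the sign of the log2 difference turned to -0.15, against 0.16 ± 0.32 (SE; 95% interval -0.59 to 0.91) with all libraries and a limma adjusted p of 0.796.

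Abcc9 was the only gene of the 10 whose groups did not overlap on FPKM as deposited. It was at 16.5, 16.2 and 20.5 FPKM in L7 libraries, against 14.2, 15.1 and 13.3 FPKM in Control libraries. The lowest L7 value lay above the highest Control value, which was also so for 5.49% of all genes tested. The L7 mean was 17.7 ± 2.39 FPKM and the Control mean 14.2 ± 0.899 FPKM (SD, n = 3 each), a ratio of 1.25. The log2 difference was 0.30 ± 0.15 (SE; 95% interval -0.06 to 0.65), with an unadjusted p of 0.0884 and an adjusted p of 0.580 in limma, in a range of 0.387 to 0.873 over its alternatives. It was 0.19 without L7 replicate 3. The fibre pore gene Kcnj11 was at 32.8, 38.4 and 93.2 FPKM in L7 and 16.8, 25.7 and 32.0 FPKM in Control libraries, also without overlap and also highest in L7 replicate 3. The summed mature fibre genes were likewise highest in L7 replicate 3, at 69389 FPKM, and their part in the Abcc9 values was not tested. Kcnj8 made up 11.3% to 16.3% of the FPKM of both pore genes in L7 libraries and 12.3% to 32.6% in Control libraries.

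None of the 9 genes passed the adjusted threshold of 0.05 in limma, and of all 14788 genes tested 0% did, with 0.468 as the smallest adjusted p. Without adjustment 873 genes had a limma p under 0.05. Cnn1 was then the 1 gene of the 9 that was lower, against 4.25% of all genes, and 0 of 9 were higher, against 1.65%. On FPKM as deposited 6 of the 9 had a log2 difference above 0, against 29.2% of all genes, and 3 below 0, against 70.8%. Their median was 0.16, against -0.15 for all genes. With median of ratios scaling 8 of 9 were above 0, all but Cnn1, against 49.7% of all genes, and the median was 0.29. With voom on recovered reads 8 of 9 were likewise above 0. Being above 0 after median of ratios scaling was not particular to the 9. It was so for 9 of 10 endothelial, 8 of 10 fibroblast and 5 of 6 tendon markers tested. It was also so for 10 of 16 further pericyte genes, 8 of 19 further smooth muscle genes and 1 of 8 myofibroblast genes. The median of the 9 as deposited depends on single libraries: it was -0.047 without Control replicate 3, and 5 of the 9 were then lower in L7. The contractile genes tested had a median of 0.14 and the pericyte genes one of 0.16. In the authors' deposited table none of the 10 had an unadjusted p under 0.05, which 1.13% of its 31690 tested genes had, and none an adjusted p under 0.05, which 0.0284% had.

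**Figure D2:**
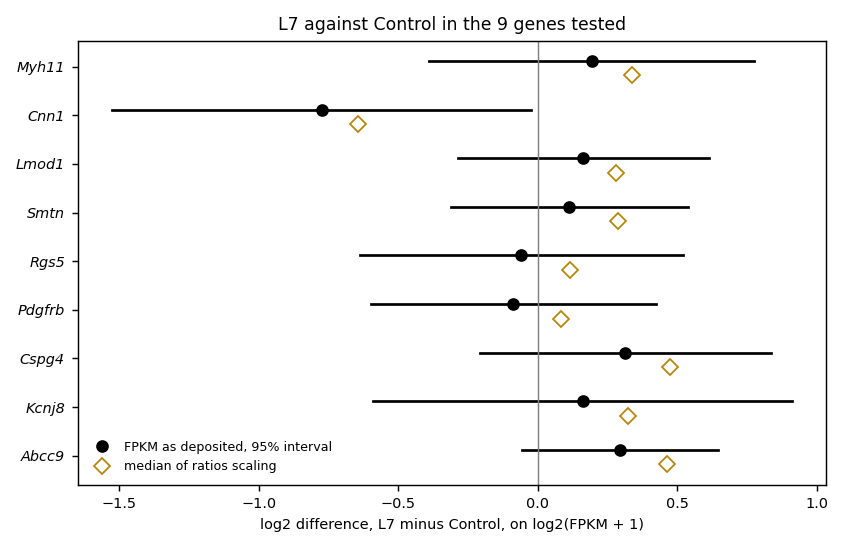
Log2 difference between L7 and Control (horizontal axis, L7 minus Control on log2(FPKM + 1)) for the 9 genes tested, with filled circles and 95% intervals for FPKM as deposited and open diamonds after median of ratios scaling. On FPKM as deposited the interval of Cnn1 lies below 0, from -1.53 to -0.02, without passing the adjusted threshold. Every other interval spans 0.

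The spread inside each group was the main feature of these genes. Control replicate 3 was the lowest Control library for 8 of the 9 genes, against 41.7% of all genes tested, with Lmod1 as the exception. It was the lowest of all 6 libraries for 6 of the 9. The 10 genes together summed to 234, 221 and 232 FPKM in L7 libraries, against 248, 256 and 168 FPKM in Control libraries. The L7 sums lay inside the Control range, and 2 Control libraries were above all L7 libraries. L7 replicate 3 was the highest L7 library for 6 of the 9 (Myh11, Cnn1, Lmod1, Rgs5, Kcnj8 and Abcc9), against 21.3% of all genes, and the lowest for Smtn, Pdgfrb and Cspg4, against 69.7% of all genes. Without Control replicate 3, Cnn1 and Rgs5 lay lower in every L7 than in every Control library and Abcc9 higher, against 26.9% and 9.04% of all genes in those directions. Without L7 replicate 3, Abcc9 and Cspg4 lay higher in every L7 library, against 9.90% of all genes.

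**Figure D3:**
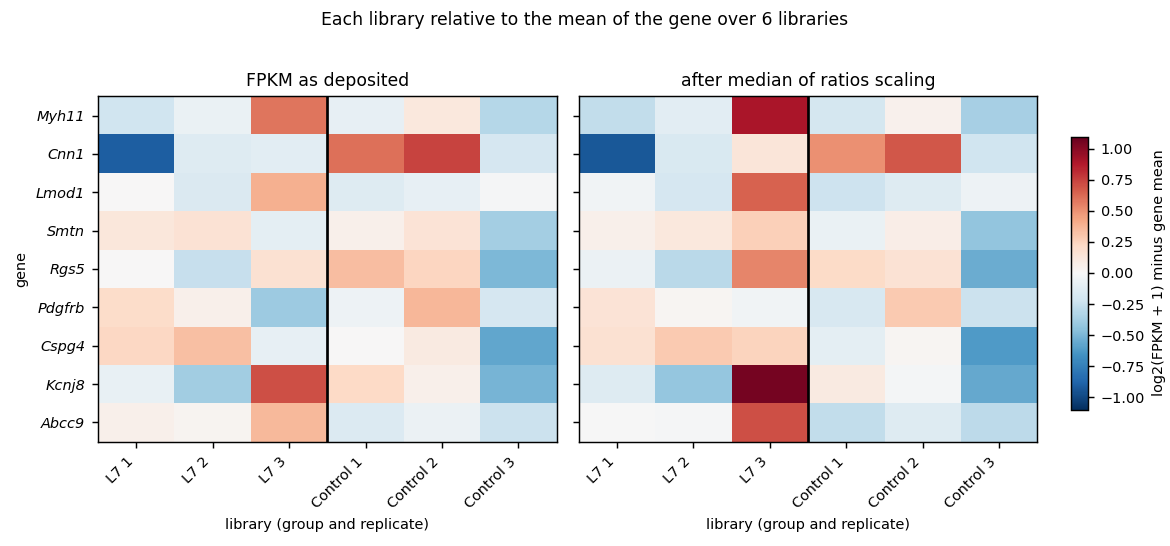
Each of the 9 genes tested (rows) in each library (columns, L7 left of the black line), as log2(FPKM + 1) minus the mean of the gene over the 6 libraries, as deposited (left) and after median of ratios scaling (right). Control 3 is the blue column for most genes in both panels. As deposited, L7 3 is the highest of the 6 libraries for 4 of the 9 genes and the lowest for Pdgfrb. After scaling, L7 3 is the red column for most genes. Cnn1 is lowest in L7 1.

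The 10 genes were then set beside their closest family members. Myh11 made up 0.755% to 3.10% of the FPKM of the smooth and non-muscle myosin heavy chains in L7 and 0.713% to 1.03% in Control libraries, where Myh9, the non-muscle chain of most cells, took the largest part. Cnn1 made up 0.211% to 1.22% of calponin FPKM in L7 and 0.558% to 1.09% in Control libraries. Its relative Cnn3, a calponin of many cell types, was at 192, 204 and 98.2 FPKM in L7 libraries, against 308, 267 and 187 FPKM in Control libraries. Control replicate 3 lay below 2 of the L7 libraries, so the groups overlapped, with a log2 difference of -0.66 ± 0.32 (SE) and an adjusted p of 0.580 in limma. Cnn2 and Tagln2, relatives made outside smooth muscle, lay lower in every L7 library than in every Control library on FPKM as deposited, as 13.7% of all genes did. With median of ratios scaling Tagln2 still did. Cnn2 did not, at 86.6 in L7 replicate 2 and 86.1 in Control replicate 2. The log2 differences of Cnn2 and Tagln2 as deposited were -0.52 ± 0.29 and -0.48 ± 0.21 (SE), both with an adjusted p of 0.580 in limma.

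The striated muscle relatives lay the other way. Lmod2 and Lmod3, the leiomodins of striated muscle, were at 85.4 to 87.0 and 78.7 to 100.1 FPKM in L7 libraries, against 62.0 to 80.5 and 62.2 to 78.2 FPKM in Control libraries, without overlap. Smtnl1, a smoothelin-like gene of muscle fibres, was at 10.3 to 42.7 FPKM in L7 and 4.92 to 10.2 FPKM in Control libraries, and Smtnl2 had overlapping groups. Of the 16 relatives tested 7 had a log2 difference above 0 as deposited and 8 after median of ratios scaling. None passed the adjusted threshold in limma. Of those 16, groups did not overlap in 7, 4 with L7 above, against 5.49% of all genes, and 3 with L7 below, against 13.7%. Besides Cnn2 and Tagln2, the latter included Rgs16, at 5.98, 5.98 and 2.52 FPKM in L7 and 10.5, 8.04 and 6.86 FPKM in Control libraries. An unadjusted limma p under 0.05 was found for 2 of the 16 with L7 higher (Kcnj11 and Myh14), against 1.65% of all genes. It was found for 1 with L7 lower (Rgs16), against 4.25%. The p of Rgs16 in the authors' deposited table was 0.0412 before adjustment. Pdgfra, the receptor of fibroblasts, was at 53.3, 38.7 and 30.2 FPKM in L7 and 51.8, 50.7 and 43.2 FPKM in Control libraries, and Pdgfrb made up 36.1% to 41.2% of both receptors in L7 and 32.5% to 40.04% in Control libraries.

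**Figure D4:**
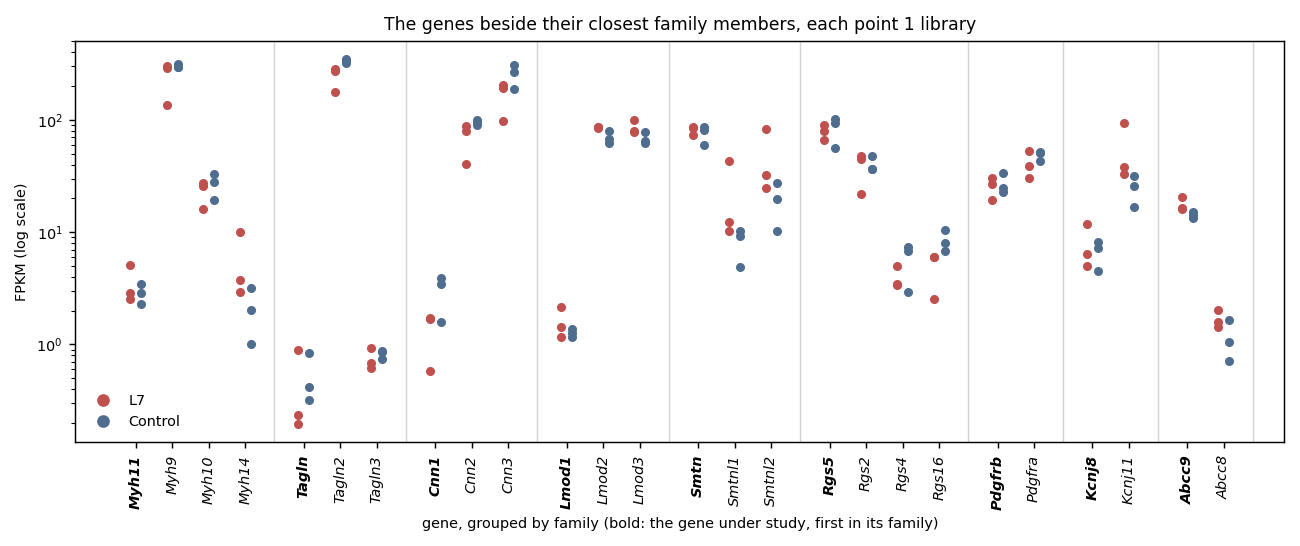
FPKM (vertical axis, log scale) of the genes under study (bold) and their closest relatives, grouped by family, with each point 1 library (L7 red, left; Control blue, right). Myh11, Tagln, Cnn1 and Lmod1 lie far below Myh9, Tagln2, Cnn3 and Lmod3, while Smtn, Rgs5 and Abcc9 have the highest mean in their families.

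Other genes of vessel-wall cells did not pass the test either. Of 19 further contractile and signalling genes of smooth muscle tested, 6 had a log2 difference above 0 and 13 below as deposited. Their median was then -0.22. With median of ratios scaling 8 were above 0 and 11 below, with a median of -0.096, and 0 passed the adjusted threshold. Actg2, the gamma smooth muscle actin, was at 1.28, 3.38 and 1.24 FPKM in L7 libraries, against 5.87, 8.35 and 1.95 FPKM in Control libraries. As with Cnn1, Control replicate 3 lay within the L7 range, and the log2 difference was -1.03 ± 0.46 (SE) with an adjusted p of 0.580 in limma. Ppp1r12b, a myosin phosphatase subunit that striated muscle also makes, was at 50.8, 53.3 and 74.2 FPKM in L7 libraries, against 30.7, 44.6 and 41.1 FPKM in Control libraries. Its groups did not overlap, with a log2 difference of 0.60 ± 0.21 (SE), an unadjusted p of 0.0229 and an adjusted p of 0.580. Tpm1, Tpm2 and Myl6, the most abundant genes of this list, are also made outside smooth muscle, Tpm1 and Tpm2 in skeletal fibres. Tpm2 was at 2200.2, 2434 and 5404 FPKM in L7 libraries, against 1435, 2155 and 1695 FPKM in Control libraries, without overlap and with L7 replicate 3 highest. The log2 differences were 0.80 for Tpm1, 0.82 for Tpm2 and -0.39 for Myl6, each with an adjusted p of 0.580 in limma. Acta2 was at 248, 236 and 112 FPKM in L7 and 413, 286 and 186 FPKM in Control libraries, with overlapping groups and an adjusted p of 0.580. The ratio of Smtn to Acta2 was 0.343, 0.371 and 0.648 in L7 and 0.197, 0.304 and 0.323 in Control libraries. It was the only one of the 13 ratios without overlap. Its exact two-sided permutation p was 0.1, the smallest the design allows, and 0.650 after adjustment. The ratios were chosen after their values were seen, for which neither p-value allows.

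Of 10 regulators of the smooth muscle programme tested, 4 had a log2 difference above 0 as deposited, with a median of -0.084. With median of ratios scaling 6 of the 10 were above 0, with a median of 0.068, and 0 passed the adjusted threshold. Csrp1, a LIM protein of smooth muscle, was at 74.5, 80.2 and 53.8 FPKM in L7 libraries, against 109, 103 and 85.9 FPKM in Control libraries. The groups did not overlap, with a log2 difference of -0.52 ± 0.19 (SE), an unadjusted p of 0.0289 and an adjusted p of 0.580. Myocd, the gene of myocardin, had 8, 3 and 2 reads in L7 and 4, 3 and 3 reads in Control libraries, so it was close to the limit of what could be read. Of 16 further pericyte genes tested, 4 had a log2 difference above 0, with a median of -0.10, and 0 passed. Mcam, an adhesion molecule of pericytes and endothelium, was at 74.9, 74.4 and 66.4 FPKM in L7 libraries, against 112, 96.6 and 66.0 FPKM in Control libraries. With median of ratios scaling 10 of these 16 were above 0. Of 15 ligands and receptors that pass between endothelium and the vessel wall, 2 had a log2 difference above 0 as deposited and 5 after that scaling, and 0 passed.

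Markers of other cells were read in the same libraries. The 10 endothelial markers summed to 326 to 371 FPKM in L7 and 315 to 374 FPKM in Control libraries, and none of the 10 passed the test. Relative to Cdh5, the cadherin of endothelial junctions, Rgs5 was at 1.06, 0.950 and 1.27 in L7 and 1.28, 1.196 and 0.980 in Control libraries. Pdgfrb was at 0.400, 0.386 and 0.277 of Cdh5 in L7 and 0.315, 0.429 and 0.395 in Control libraries. Both ratios overlapped between the groups, with exact two-sided permutation p-values of 0.7 and 0.6. The 8 genes of matrix-making myofibroblasts summed to 1170 to 2816 FPKM in L7 and 1798 to 3757 FPKM in Control libraries, with all 8 log2 differences below 0 as deposited and 7 after median of ratios scaling. Control replicate 3 had the lowest Control sum, and it was also the lowest Control library for 8 of the 9 genes tested, Cnn1 among them. In L7 replicates 1 to 3 the sums were 2322, 2816 and 1170 FPKM, where Cnn1 was at 0.575, 1.67 and 1.72 FPKM. The part of myofibroblasts in the Cnn1 values was not tested. The 10 genes of satellite cells and regenerating fibres summed to 4193 to 5030 FPKM in L7 and 2500 to 3582 FPKM in Control libraries, without overlap, while 2 of the 10 had a log2 difference above 0 as deposited and 5 after median of ratios scaling. That separation rests on Actc1, the cardiac actin that young fibres make, at 3398, 2817 and 3473 FPKM in L7 libraries, against 1978, 2265 and 1464 FPKM in Control libraries. Without it the sums overlapped, at 719.7 to 1632 FPKM in L7 and 1036 to 1483 FPKM in Control libraries. The 10 fibroblast markers summed to 1621 to 1767 FPKM in L7 and 1784 to 2090 FPKM in Control libraries, also without overlap, with 5 log2 differences above 0 and 5 below. Ly6a, a surface protein of fibroblasts and endothelium, carried that separation, at 706, 657 and 513 FPKM in L7 and 1041, 783 and 1236 FPKM in Control libraries (unadjusted p of 0.0232 and adjusted p of 0.580 in limma). Without Ly6a the sums overlapped, at 917 to 1254 FPKM in L7 and 854 to 1002 FPKM in Control libraries. Macrophage markers summed to 2196 to 4509 FPKM in L7 and 3089 to 4452 FPKM in Control libraries. No marker of the endothelial, fibroblast, myofibroblast, fibre or macrophage lists was at 0 in any library.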

How the data were processed

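Per the labels, poly-T beads selected messenger RNA from 3 µg of total RNA before library preparation with a kit of the NEBNext Ultra RNA line. The authors deposited FPKM per gene and library. The build mm10 and the tools HISAT2 2.0.4, DESeq 1.12.0, TopHat2 2.0.12 and Bowtie2 2.2.3 are listed, without roles, in the submitters' processing notes. For the counter and strand setting, the sources used here name nothing. The authors' deposited comparison has p-values raw and adjusted, log2 fold changes and, for each group, an averaged signal, per the file headers. Symbols and exons came from GENCODE M21 (GRCm38) by Ensembl identifier.

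Reads per gene were recovered from the FPKM steps and the group read counts, and all 144294 values above 0 and below 3000 reads came out within 0.05 of a whole number. They served for depth and for voom.

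For testing, 14788 genes averaging 1 FPKM or more were transformed to log2(FPKM + 1) and fitted by group in limma 3.58.1 under R 4.3.3 (trended variance, two-sided). Benjamini-Hochberg adjustment covered all of them, at a threshold of 0.05. This scale understates changes of low genes. The steps were tested on simulated data. Ratios used an exact permutation test (scipy 1.17.1). The main fit did not pair samples by replicate number, as nothing in the labels says how animals were assigned. The alternatives were another pseudocount, other filters, median of ratios and quantile scaling, voom, array weights, sex, a replicate block and leaving out each library.

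The genes and the 14 companion lists (158 genes) were chosen with earlier results of these data known. The text names all 10 genes, and otherwise only relatives, ligands or receptors and, where no gene of another list passed, some of its 3 genes of highest mean FPKM and 2 of smallest p. Acta2, Myl9, Myocd, the 13 ratios and the list sums without 1 gene were chosen after their values were seen, and Schwann cell, adipocyte and tendon lists summed to 68.8 to 121, 49.6 to 76.0 and 571 to 879 FPKM in L7 and 63.2 to 66.8, 43.5 to 51.6 and 613 to 764 FPKM in Control libraries.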

Additional observations from a re-analysis of the deposited data

How the results depend on the processing

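None of the 9 genes tested passed the adjusted threshold under any of the alternatives run, with adjusted p-values from 0.365 to 0.994 over 141 alternative values, of which 21 had the other sign. For Tagln 3 of 10 had the other sign, and its only test, with no filter on low values, gave a log2 difference of -0.10 and an adjusted p of 0.862 in limma. Cnn1 stayed lower in L7, and Cspg4, Abcc9 and Lmod1 stayed higher, in every alternative in which they were tested. With median of ratios scaling, quantile normalization and voom the log2 difference of Rgs5 was 0.12, 0.046 and 0.12, and that of Pdgfrb was 0.082, 0.056 and 0.078. Under each of these 3 settings 1 of 9 genes was lower in L7. With array weights Myh11 was at -0.071, Pdgfrb at 0.011 and Kcnj8 at -0.27. When L7 replicate 3 was dropped and the rest scaled by the median of ratios, Myh11 was at -0.026, Pdgfrb at 0.12 and Kcnj8 at -0.13. Leaving out each library in turn gave -0.050 to 0.35 for Myh11, -1.06 to -0.52 for Cnn1, -0.32 to 0.10 for Rgs5, -0.21 to 0.088 for Pdgfrb, -0.15 to 0.39 for Kcnj8, -0.047 to 0.22 for Smtn and -0.32 to 0.042 for Tagln. The number of genes lower in L7 then ranged from 1 without Control replicate 2 to 5 without Control replicate 3, and their median from -0.047 to 0.23. Groups did not overlap in 2 genes with median of ratios scaling, both with L7 above, against 9.58% of all genes above and 8.82% below. Without L7 replicate 3 or Control replicate 3, chosen after seeing the data as that setting was, they did not overlap in 2 to 3 genes, where the shares of all genes were 9.90% above and 15.0% below without L7 replicate 3, and 9.04% above and 26.9% below without Control replicate 3. The cause of these changes was not tested.

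Over all genes the count past the adjusted threshold was 3 with array weights (1616 at an unadjusted p under 0.05), 1 when L7 replicate 3 was dropped and that scaling used, and 0 to 1 when each library was left out in turn (1 without L7 replicate 1). With the replicate block it was 0, and the log2 difference of Cnn1 was -0.78 with an adjusted p of 0.504. The block changed no call. Same-numbered libraries deviated from their group means with correlations of 0.322, -0.065 and 0.087 over genes. Pairs with different numbers ran from -0.346 to 0.220. With 3 libraries per group these values cannot show whether the samples were paired. At 4 to 18 reads per library Tagln cannot show a difference.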
